A study of Homo sapiens with 22 samples.

Results

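Primed cells of the human melanoma cell line WM989 were compared after 5 days in 5 ng/mL recombinant TGFB1 and after 5 days without treatment. The primed state is a rare transcriptional state of untreated melanoma cells from which resistance to targeted therapy is more likely to arise, and the other cells are called drug-susceptible. The members are the cells that the authors' labels class as primed, which are the cells of their Louvain clusters 4 and 10, in the TGFB1 and the untreated (Control) libraries. There were 3593 such cells of 40021 cells in 8 libraries of the treatment experiment. Control r1 held 94 primed cells, Control r2 held 165, TGFB1 r1 held 1577 and TGFB1 r2 held 1757. All cells carried a transcribed lineage barcode, and each replicate was split over 4 plates, which received no treatment, TGFB1, a TGF-β receptor inhibitor (TGFBRi, 4 µM) or a PI3K inhibitor (PI3Ki, 2 µM). The 389 primed cells of TGFBRi and the 95 of PI3Ki entered the same fit, and with it the filter on low counts, the replicate block and the estimate of the spread, but were not compared. Replicates r1 and r2 were grown in parallel, each from cells sorted into 1 well of 1 cell line. With the replicate as a block, p-values measure how far differences between treatments varied between the 2 replicates, over the sums of all 4 treatments, and not the spread between the wells themselves. The spread used for each gene was drawn largely from other genes (38.5 prior against 3 residual degrees of freedom). A standard error (SE) or p-value is therefore not that gene's own replicate agreement alone. The sample labels name the 2 starting populations Mix and Primed, and which of them is r1 was not settled.

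TGFB1 is a secreted ligand that is stored in a latent form in the extracellular matrix and, once released, binds a complex of type I and type II receptor kinases. The receptors phosphorylate SMAD2 and SMAD3, which enter the nucleus with SMAD4 and switch on target genes, among them genes of the matrix and a set of inhibitors that damp the signal. In melanocytic cells the pathway is known for slowing growth and for lowering pigment genes, and in many epithelial cells for epithelial to mesenchymal transition (EMT).

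Transcripts were measured by droplet scRNA-seq of transcript 3′ ends with unique molecular identifiers (UMIs), and UMI counts were summed over the primed cells of each library. The 4 sums compared held between 1341778 and 22354563 UMIs, and the deepest, TGFB1 r2, was the one with the most cells. A primed cell held a median of 12420 UMIs in Control r1, 14540 in Control r2, 11100 in TGFB1 r1 and 11190 in TGFB1 r2. The median percent of mitochondrial UMIs lay between 7.61 and 7.93 in the 4 sums, and that of ribosomal protein UMIs was 10.0 and 9.37 in Control against 11.7 and 11.3 in TGFB1. Of 3593 primed cells, 38 had a cell barcode that also occurred in another library.

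The authors chose clusters 4 and 10 for their expression of primed marker genes, so the marker levels describe these clusters and are no independent check of the label. Of 13 primed markers, 12 were higher in cluster 4 than in all other cells of the experiment, and 12 were higher in cluster 10. The exception in cluster 4 was VGF, a secreted neuropeptide precursor, with 269 CPM (UMIs scaled to a common library total) against 1241 CPM outside it. The exception in cluster 10 was TGFBI, a matrix protein, with 0.485 CPM against 1.09 CPM. Of 12 drug-susceptible markers, 0 were higher in cluster 4 and 1, CDH19, in cluster 10.

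The primed cells made up 2.26% and 4.47% of the cells in Control r1 and r2 and 29.1% and 31.3% in TGFB1 r1 and r2. Control and TGFB1 primed cells filled different clusters. In Control, 89 of 94 primed cells in r1 and 159 of 165 in r2 lay in cluster 10. In TGFB1, 1548 of 1577 cells in r1 and 1706 of 1757 in r2 lay in cluster 4. The comparison therefore sets mostly cells of cluster 4 against cells of cluster 10, and treatment, cluster and which cells came to be classed as primed cannot be told apart in it. The clusters were called on these same counts, so genes that separate the clusters took part in placing the cells. Cluster 10 held 29 and 51 TGFB1 cells, which allowed a comparison within it, while the 5 and 6 Control cells of cluster 4 were too few for one.

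Many genes differed between TGFB1 and Control primed cells, with FOXS1, CST1, CST4, PMEPA1, NKD1 and JAG1 among the largest rises and NPPC, SEMA3A, NGFR, SLC7A11 and SRGN among the largest falls. Of 10930 genes tested with edgeR's quasi-likelihood test at a Benjamini-Hochberg adjusted p of 0.05, 679 genes (6.21%) were higher in TGFB1 and 775 (7.09%) were lower. At least a 2-fold change was found for 235 of the higher and 331 of the lower genes, at least a 4-fold change for 61 and 75, and at least an 8-fold change for 23 and 15. The median log2 fold change over all genes tested was -0.00. Of all calls 46.7% were higher in TGFB1, against 34.3% with scaling by library totals alone (492 higher and 941 lower genes) and 59.8% without a filter on low counts (910 and 612), so the split between the directions depends on the scaling and the filter. Each of the 4 sums left out in turn lowered the counts, to 367 and 396 without Control r1, 290 and 367 without Control r2, 272 and 312 without TGFB1 r1, and 332 and 386 without TGFB1 r2. In these fits 174 of the higher and 185 of the lower genes stayed past the threshold in the same direction every time. In the text that follows, such a gene is said to hold in every fit, which speaks of these 4 fits alone. Genes named from lists hold in them unless stated otherwise. Most calls over all genes did not hold, so a low held number is no trait of a list. Called members of a list are likewise to be read beside 6.21% higher and 7.09% lower over all genes. With DESeq2 11 of the 97 genes recomputed here as called were no longer past the threshold, namely FOXS1, DHRS2, SLC7A11, DDIT3, JUN, AXL, EGFR, MGP, SPOCK1, DCN and BAMBI, and with equal cell numbers 10 of 94, namely EGFR, MITF, NFATC2, TGFBR3, CDH19, SOX6, PLK1, TOP2A, CCNB1 and BAMBI. In cluster 10 alone 36 of 81 had the other sign. The words rose and fell compare TGFB1 with Control primed cells and do not say that given cells changed.

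**Figure D1:**
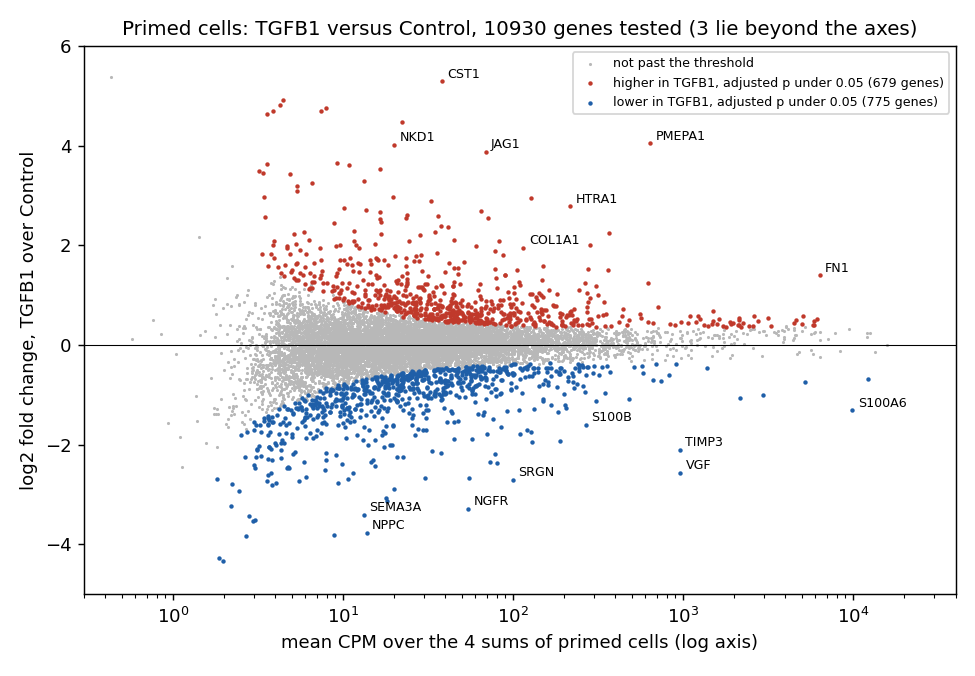
Log2 fold change of TGFB1 over Control in primed cells against the mean CPM over the 4 sums, with 1 point per gene tested, except 3 genes beyond the axis. The counts of genes cover all genes tested. Red points (679 genes) were higher and blue points (775 genes) lower at an adjusted p of 0.05; CST1 lies highest among the labelled genes at 5.29 and NPPC lowest at -3.77.

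Several feedback genes of the pathway rose. PMEPA1 (chromosome 20, bases 57648392 to 57711536 in hg38) encodes a membrane protein that holds back SMAD2 and SMAD3. Its level was 75.1 CPM in Control r1, 72.0 CPM in Control r2, 1201 CPM in TGFB1 r1 and 1201 CPM in TGFB1 r2. Both treated sums were above both untreated sums by more than any spread between replicates, a 16.5-fold rise (log2 fold change 4.04 ± 0.15 SE, adjusted p = 1.13e-23). SKIL, which represses SMAD targets, rose from 17.5 and 24.0 CPM to 114 and 130 CPM (log2 fold change 2.54 ± 0.18). SMAD7, the inhibitory SMAD that leads receptors to degradation, rose from 21.2 and 26.8 CPM to 92.3 and 100 CPM (1.98 ± 0.17). SMURF2, a ubiquitin ligase that works with SMAD7, and SKI, the relative of SKIL, rose by 1.503 ± 0.15 and 1.21 ± 0.18 on the log2 scale. Of 16 tested genes on the list of SMADs, co-factors and feedback, 7 rose and 1 fell, with a median log2 fold change of 0.53, and 5 of the 7 rises held in every fit. The member that fell was BAMBI, a decoy receptor of the pathway, from 26.6 and 40.8 CPM to 22.9 and 24.0 CPM (-0.58 ± 0.18, adjusted p = 0.0254), a call that was lost without Control r2 (-0.14, adjusted p = 0.904), without TGFB1 r1 (-0.56) and without TGFB1 r2 (-0.58). The signal transducers themselves were not past the threshold, with log2 fold changes of 0.00 for SMAD2 (adjusted p = 0.998), 0.22 for SMAD3 (adjusted p = 0.549) and 0.19 for SMAD4 (adjusted p = 0.506).

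Ligands and receptors moved in both directions. TGFB1 mRNA, from the gene of the added protein, rose from 49.3 and 49.97 CPM in Control to 114 and 108 CPM in TGFB1 (log2 fold change 1.15 ± 0.15). TGFBR3, a co-receptor that presents ligand, fell from 13.7 and 6.397 CPM to 1.88 and 1.74 CPM (-2.34 ± 0.40). GDF15, a distant member of the ligand family that is induced by stress, fell from 144 and 80.8 CPM to 58.4 and 51.2 CPM (-0.98 ± 0.14). TGFBR1 and TGFBR2, the signalling receptors, had log2 fold changes of 0.39 (adjusted p = 0.0995) and -0.13 (adjusted p = 0.711). Of 16 tested ligands and receptors, 3 rose and 3 fell, and the median was 0.17, with 1 of the rises and 2 of the falls held in every fit.

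Genes that store or release latent TGF-β mostly rose, with 6 of 9 tested higher, 1 lower and a median log2 fold change of 1.13, and 4 of the rises and the fall held in every fit. LTBP2 and LTBP3, matrix proteins that bind latent TGF-β or lie beside it, rose by 2.29 ± 0.33 and 1.43 ± 0.17, and the rise of LTBP2 was 3.51 without Control r2. THBS1, which can activate the latent ligand, rose from 35.7 and 52.8 CPM to 115 and 113 CPM (1.34 ± 0.16), and FURIN, the protease that cuts the ligand precursor, rose from 19.7 and 17.6 CPM to 40.9 and 39.6 CPM (1.13 ± 0.19). The member that fell was ITGB8, an integrin subunit that releases active ligand, from 26.6 and 29.6 CPM to 6.32 and 7.13 CPM (-2.05 ± 0.21).

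Direct targets of the pathway were higher in 15 of 23 tested genes and lower in 2, with a median log2 fold change of 0.66, and 7 of the 15 rises and 1 of the falls held in every fit. PDGFB, a growth factor, had 1 UMI over both Control sums and 329 UMIs over both TGFB1 sums, a ratio of 29.6 after scaling for depth with a counting interval of 5.28 to 1174, and did not pass the filter on low counts in every fit. TGFBI had 2 and 609 UMIs, a ratio of 27.4 with an interval of 7.56 to 227. JUNB, an AP-1 factor and early SMAD target, rose from 107 and 101.1 CPM to 245 and 201 CPM (1.10 ± 0.14).

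Matrix genes rose in part. FN1, which encodes fibronectin and lies on chromosome 2 from 215360440 to 215436073, rose from 3369 and 3610 CPM in Control to 9135 and 9284 CPM in TGFB1 (log2 fold change 1.40 ± 0.13, adjusted p = 2.36e-11). COL1A1, the main chain of type I collagen, rose from 55.4 and 41.6 CPM to 177 and 185 CPM (1.95 ± 0.16, adjusted p = 7.54e-13). Both genes were far apart between the groups and close within them. Of 15 tested collagens, 8 rose and 1 fell (median 1.02), with 6 rises held in every fit, among them COL6A3 (2.21 ± 0.23), COL5A1 (2.08 ± 0.24), COL18A1 (2.02 ± 0.27) and COL5A2 (1.84 ± 0.19). Matrix glycoproteins and proteoglycans split, with 8 of 20 higher and 6 lower (median -0.05), and 6 of these rises but 2 of the falls held in every fit. SPOCK1, a secreted proteoglycan, rose from 29.6 and 35.2 CPM to 111 and 155 CPM (2.08 ± 0.19), whereas LAMA4, a laminin chain of basement membranes, fell from 18.2 and 33.6 CPM to 5.31 and 4.78 CPM (-2.44 ± 0.24).

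Proteases and their inhibitors also split, with 6 of 17 higher and 7 lower (median -0.27). Most of these calls, as over all genes, did not hold in every fit. TIMP3, a matrix-bound inhibitor of metalloproteinases, fell from 1661 and 1446 CPM to 376 and 345 CPM, a 4.30-fold fall (log2 fold change -2.10 ± 0.13, adjusted p = 1.44e-16). SERPINE2, an inhibitor of thrombin and urokinase, rose from 1023 and 1265 CPM to 2031 and 1654 CPM (0.68 ± 0.13), but was past the threshold neither without Control r1 (0.48, adjusted p = 0.157) nor without TGFB1 r1 (0.49, adjusted p = 0.156). Of 14 integrins, 4 rose and 4 fell (median -0.16), 2 and 3 of them in every fit, and ITGA6, a laminin receptor subunit, fell from 98.6 and 94.4 CPM to 34.2 and 37.8 CPM (-1.41 ± 0.14). Among 11 genes of collagen processing 2 rose and 4 fell (median -0.10), 1 each of which held in every fit.

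Actin and contractile genes were higher in 7 of 20 tested and lower in 2 (median 0.29), and 4 of the rises and 0 of the falls held in every fit. TPM1, a tropomyosin that stabilises actin filaments, rose from 127 and 99.2 CPM to 474 and 426 CPM, a 4.04-fold rise (log2 fold change 2.01 ± 0.13). MYH9, the heavy chain of non-muscle myosin, rose from 185 and 192 CPM to 422 and 432 CPM (1.18 ± 0.12). EMT transcription factors and cadherins were mixed, with 4 of 12 higher and 5 lower (median 0.18). Here too most calls, as over all genes, did not hold in every fit. CDH2, which encodes N-cadherin, rose from 28.8 and 29.6 CPM to 64.4 and 70.9 CPM (1.22 ± 0.16). VIM, the intermediate filament vimentin, and ZEB1, an EMT factor, had log2 fold changes of -0.18 (adjusted p = 0.425) and 0.53 (adjusted p = 0.231).

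Genes with the largest rises belonged to several families. FOXS1, a forkhead factor on chromosome 20 from 31844303 to 31845604, had 0 UMIs in both Control sums and 35.1 and 29.0 CPM in the TGFB1 sums. With 3 counts over the Control sums as the limit that a count of 0 allows, it was at least 38.3-fold higher. CST1 and CST4, secreted cysteine protease inhibitors, rose from 1.52 and 1.999 CPM to 82.2 and 67.0 CPM and from 3.03 and 1.20 CPM to 45.5 and 39.1 CPM (log2 fold changes 5.29 ± 0.30 and 4.47 ± 0.37). They are paralogs between which reads can be split, so the value of each is uncertain. NKD1, an inhibitor of Wnt signalling, rose from 1.52 and 2.80 CPM to 34.7 and 40.5 CPM (4.02 ± 0.32). JAG1, a ligand of Notch receptors on chromosome 20 from 10637684 to 10673999, rose from 11.4 and 7.20 CPM to 125 and 131 CPM, a 14.7-fold rise (3.88 ± 0.21, adjusted p = 1.93e-18).

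The other genes among the 15 largest rises had log2 fold changes between 2.70 and 3.61. HTRA1, a secreted serine protease, had the highest level of them, with 46.3 and 60.8 CPM in Control and 413 and 347 CPM in TGFB1 (2.78 ± 0.16). ERMN, an actin-binding protein, had 0 and 2.40 CPM in Control and 24.9 and 16.0 CPM in TGFB1, so the size of its rise rests on few counts; it was 10.33 without Control r2 and 6.30 without TGFB1 r2 against 3.61 ± 0.45 with all sums. PLPP4, a lipid phosphatase (3.52 ± 0.33), PODXL, a cell surface sialomucin (3.29 ± 0.34), CLU, a secreted chaperone (2.96 ± 0.32), DHRS2, a short-chain reductase (2.89 ± 0.26), and GFPT2, an enzyme of hexosamine synthesis (2.70 ± 0.32), started from at most 10.4 CPM in Control. NKILA, a long noncoding RNA on the opposite strand, overlaps the start of PMEPA1, and rose from 1.52 and 3.20 CPM to 18.2 and 17.4 CPM (2.75 ± 0.38). Whether the authors' counting used strand was not given, so reads of NKILA and PMEPA1 may not be told apart.

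**Figure D2:**
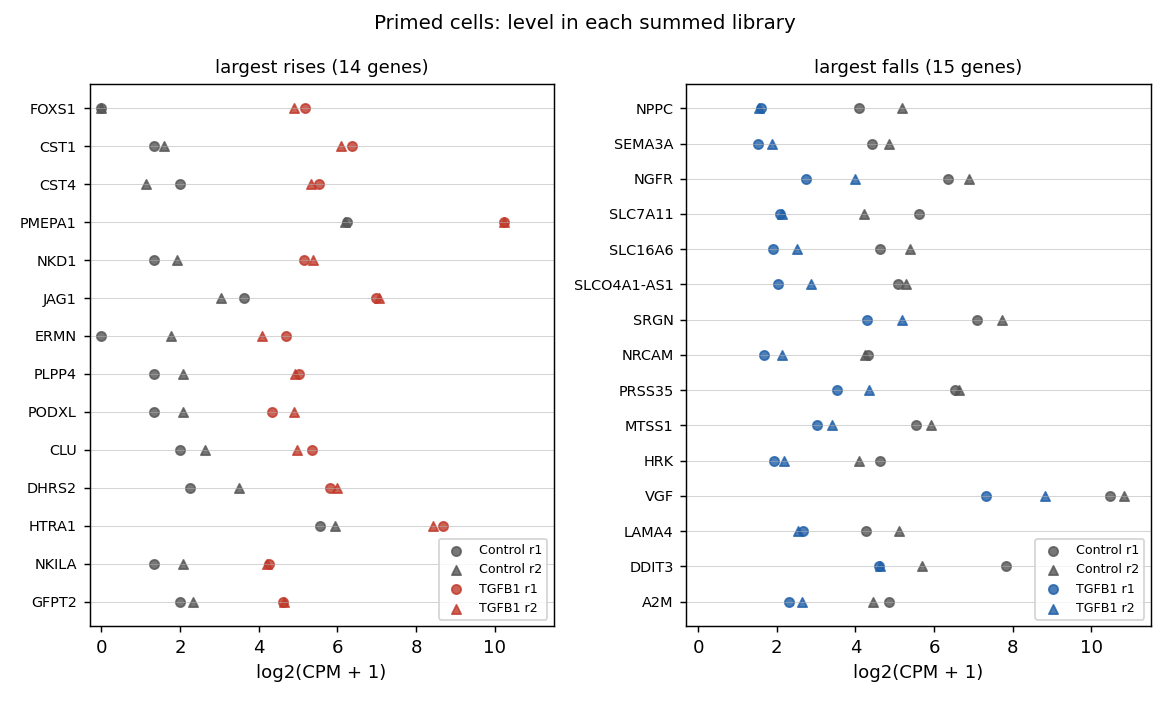
Level of 14 of the 15 genes with the largest rise (left) and the 15 with the largest fall (right) in each of the 4 sums, as log2(CPM + 1). Grey symbols are Control and coloured symbols TGFB1, circles are r1 and triangles r2. In every gene shown both TGFB1 symbols lie on the same side of both Control symbols. The genes were picked for large changes in these same sums, so this separation is favoured by the choice and is no result about them. DDIT3 shows the widest gap between the Control sums.

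Of the pathway lists, Notch genes were higher in 4 of 8 tested and lower in 0 (median 0.58), and Wnt genes were higher in 2 of 10 and lower in 5 (median -0.69). Of the Notch rises 2 held in every fit, and of the Wnt genes 1 rise and 1 fall did. SFRP1, a secreted Wnt antagonist, fell from 85.7 and 158 CPM to 15.4 and 33.0 CPM (log2 fold change -2.34 ± 0.17). Among ID genes and targets of BMP signalling, ID3, a repressor of helix-loop-helix factors, rose from 63.0 and 38.4 CPM to 137 and 120 CPM (1.40 ± 0.17) and ID4 fell from 26.6 and 27.6 CPM to 9.65 and 8.02 CPM (-1.62 ± 0.23). All 5 tested members of that list were past the threshold, 4 higher and 1 lower, and 1 of the rises and the fall held in every fit.

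The largest falls included NGFR, a nerve growth factor receptor and primed marker, on chromosome 17 from 49495293 to 49515008. It had 80.4 and 117 CPM in Control and 5.68 and 14.96 CPM in TGFB1, so the highest treated sum was far below the lowest untreated sum, a 9.74-fold fall (log2 fold change -3.28 ± 0.17, adjusted p = 4.62e-19). SRGN, a proteoglycan of secretory granules, fell from 134 and 211 CPM to 18.5 and 35.2 CPM, 6.503-fold (-2.70 ± 0.14). VGF fell from 1428 and 1799 CPM to 158 and 452 CPM, 5.94-fold (-2.57 ± 0.16). In all 3 genes r2 was above r1 in both groups. The groups did not overlap, which is favoured by the choice of the largest falls.

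The other large falls were in genes of varied function. NPPC, the precursor of C-type natriuretic peptide, fell from 15.9 and 35.2 CPM to 2.04 and 1.92 CPM (-3.77 ± 0.29), and SEMA3A, a secreted guidance cue, from 20.5 and 28.0 CPM to 1.88 and 2.67 CPM (-3.41 ± 0.26). IL24, a cytokine with a lower mean level, fell from 17.5 and 15.6 CPM to 1.13 and 1.08 CPM (-3.81 ± 0.38). SLC7A11, the cystine and glutamate exchanger, had 47.8 CPM in Control r1 and 17.6 CPM in Control r2 against 3.22 and 3.42 CPM in TGFB1 (-3.13 ± 0.33), a call that was lost with DESeq2 (adjusted p = 0.0507). SLC16A6, a transporter of the monocarboxylate family, NRCAM, a neuronal adhesion molecule, PRSS35, a serine protease homologue, and MTSS1, an actin and membrane scaffold, fell by 3.07, 2.68, 2.68 and 2.67 on the log2 scale. SLCO4A1-AS1, a long noncoding RNA, fell by 2.89, HRK, a pro-apoptotic BCL2 family protein, by 2.57 and A2M, a protease inhibitor, by 2.35.

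Surface receptors with a role in drug resistance did not move together. FGFR1, a fibroblast growth factor receptor, fell from 86.5 and 108 CPM to 33.5 and 43.3 CPM (log2 fold change -1.35 ± 0.15), while AXL, a receptor tyrosine kinase, rose from 20.5 and 28.8 CPM to 39.5 and 49.2 CPM (0.83 ± 0.18). PDGFRB, a platelet-derived growth factor receptor, rose from 12.1 and 11.6 CPM to 59.9 and 55.5 CPM (2.27 ± 0.20). NT5E, a surface enzyme and primed marker, had 92.5 and 109 CPM in Control and 100 and 136 CPM in TGFB1 (0.24 ± 0.14, adjusted p = 0.317). EGFR had 11.4 and 8.80 CPM in Control and 16.6 and 19.1 CPM in TGFB1 (0.89 ± 0.27, adjusted p = 0.0172), and this call was lost without Control r2 (0.54), without TGFB1 r1 (0.97) and without TGFB1 r2 (0.78). Of 14 tested receptors and markers 4 rose and 3 fell (median -0.03), and of 18 growth factors 5 rose and 6 fell (median -0.37). Of the receptors and markers 2 rises and 2 falls held in every fit, and of the growth factors 1 rise and 1 fall.

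Outputs of ERK signalling were lower in 10 of 16 tested genes and higher in 0, with a median log2 fold change of -0.60, and 5 of the falls held in every fit. SPRY1, a feedback inhibitor of receptor signalling, fell from 138 and 88.3 CPM to 40.2 and 38.4 CPM (-1.48 ± 0.15). PHLDA1, an early response gene, fell from 474 and 440 CPM to 220 and 253 CPM (-0.95 ± 0.13). ETV1, a transcription factor downstream of ERK, fell by 0.94, DUSP6, the phosphatase of ERK itself, by 0.74 and SPRY2 by 0.71 on the log2 scale. AP-1 factors were higher in 2 of 13 and lower in 4 (median -0.16), and 1 of these rises and 0 of the falls held in every fit. FOSL1 had 158 and 153 CPM in Control and 126 and 135 CPM in TGFB1 (-0.25 ± 0.16, adjusted p = 0.349). JUN had 86.5 and 60.4 CPM in Control and 48.7 and 45.1 CPM in TGFB1 (-0.60 ± 0.16, adjusted p = 0.00758), a call that was lost without Control r1 (-0.27), without TGFB1 r1 (-0.71) and without TGFB1 r2 (-0.50).

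Melanocyte identity and pigment genes were lower in 18 of 28 tested and higher in 0 (median log2 fold change -0.79), and 8 of the falls held in every fit. S100B, a calcium-binding protein of melanocytes and glia, fell from 401 and 402 CPM to 124 and 142 CPM, 3.02-fold (-1.60 ± 0.12). MLANA, a melanosome protein, fell from 208 and 198 CPM to 84.8 and 106 CPM (-1.08 ± 0.14), and SOX10, the master factor of the lineage, from 72.1 and 69.2 CPM to 34.1 and 34.5 CPM (-1.04 ± 0.14). MITF, the melanocyte transcription factor, fell by 0.91 and CDH19, a cadherin of neural crest derivatives, by 2.47. For SOX10, MITF and S100B the replicates of a group lay close together and the groups lay apart. NFATC2, a calcium-regulated factor, had 31.1 and 38.0 CPM in Control and 17.0 and 18.8 CPM in TGFB1 (-0.97 ± 0.19), a call that was lost without Control r2 (-0.79, adjusted p = 0.106).

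Neural crest-like genes were lower in 6 of 8 tested and higher in 1 (median -1.19), and 5 of the falls and the rise held in every fit. RXRG, a retinoid receptor, fell from 8.34 and 7.60 CPM to 1.34 and 1.45 CPM (log2 fold change -2.47 ± 0.43), and SOX6 from 37.9 and 38.4 CPM to 11.3 and 13.8 CPM (-1.60 ± 0.18). AQP1, a water channel, was the member that rose, from 11.4 and 35.2 CPM to 80.4 and 79.5 CPM (1.68 ± 0.20), and its change was 2.73 without Control r2. MGP, an inhibitor of calcification, had 110 CPM in Control r1, 294 CPM in Control r2 and 49.1 and 60.4 CPM in TGFB1 (-1.94 ± 0.26), and without Control r2 its call was lost (-0.69, adjusted p = 0.0808).

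**Figure D3:**
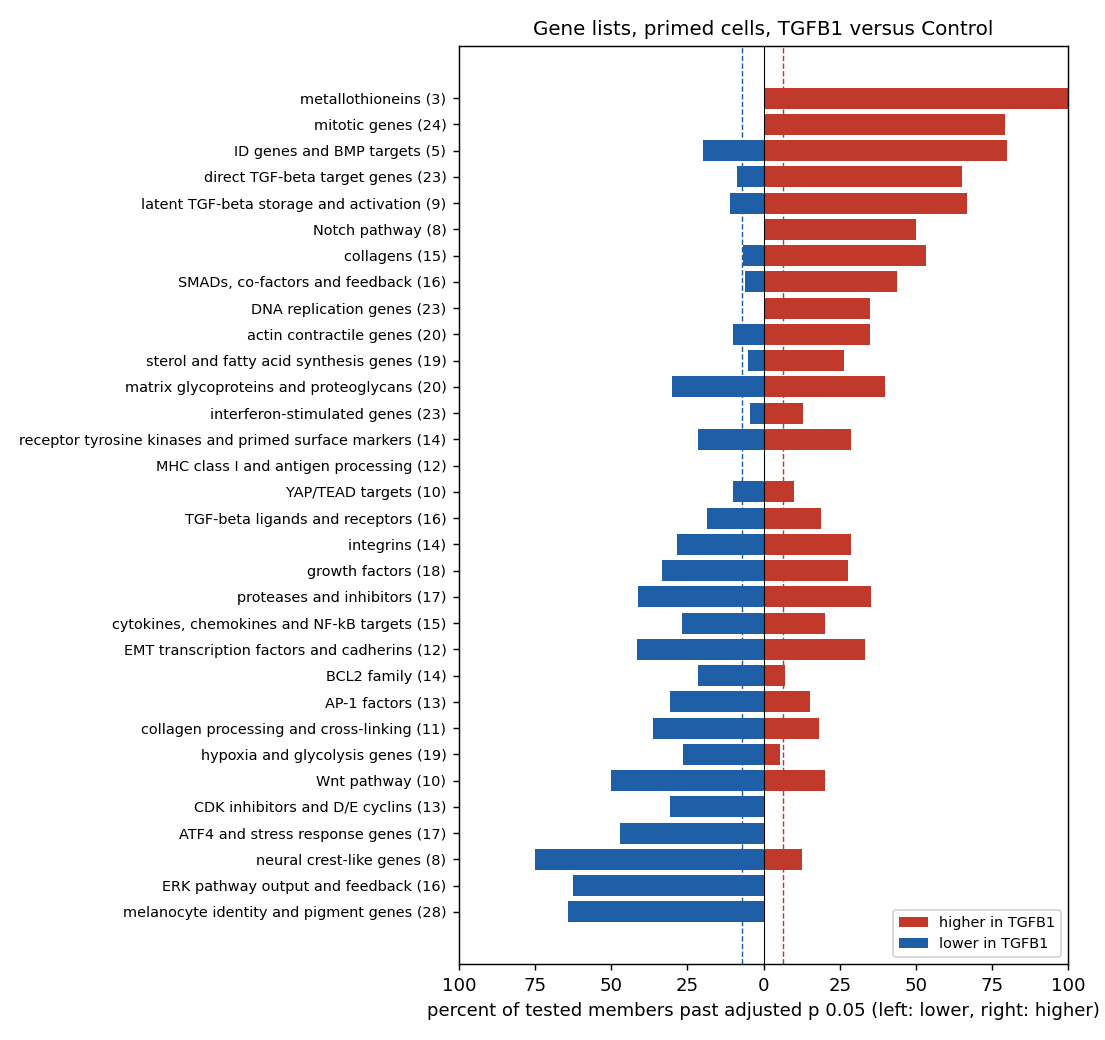
Percent of the tested members of each gene list that were higher (red, to the right) or lower (blue, to the left) in TGFB1 at an adjusted p of 0.05, with the number tested in brackets. Dashed lines mark the shares among all 10930 genes, 6.21% higher and 7.09% lower; mitotic genes and direct targets lie far to the right, and melanocyte identity and ERK output genes have bars on the left alone.

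Mitotic genes were higher in 19 of 24 tested and lower in 0 (median log2 fold change 0.58). As over all genes, most of these rises did not hold in every fit. PLK1, a mitotic kinase, rose from 25.03 and 21.99 CPM to 54.5 and 50.9 CPM (1.19 ± 0.18). TOP2A, the topoisomerase of dividing cells, rose by 0.81 and CCNB1, the mitotic cyclin B1, by 0.92 on the log2 scale. With equal cell numbers the calls of PLK1, TOP2A and CCNB1 were lost. Genes of DNA replication were higher in 8 of 23 and lower in 0 (median 0.36), and 0 of those rises held in every fit. Of CDK inhibitors and cyclins 0 rose and 4 of 13 fell (median -0.09), 2 of them in every fit, including CDKN2A, from 272 and 313 CPM to 167 and 157 CPM (-0.87 ± 0.13), and CDKN2B, itself a known TGF-β target, from 30.3 and 30.0 CPM to 13.3 and 12.7 CPM (-1.23 ± 0.19). By the authors' phase call 60.6% and 63.6% of Control and 53.5% and 53.9% of TGFB1 primed cells were in G1. In G1 cells alone, 539 genes rose and 535 fell over all genes tested. Phases are usually called from the expression of replication and mitotic genes, so cells high in them would be left out there and the G1 values are no check of these rises; PLK1 (0.95, adjusted p = 0.466), TOP2A and CCNB1 were not past the threshold as higher in G1 cells.

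Stress genes of the ATF4 pathway were lower in 8 of 17 tested and higher in 0 (median -0.45), 4 of the falls held in every fit, and here Control r1 stood apart. DDIT3, a stress-induced transcription factor, had 225 CPM in Control r1 and 50.4 CPM in Control r2 against 23.4 and 23.6 CPM in TGFB1. Its log2 fold change was -2.36 ± 0.27 and fell to -0.90 without Control r1. TRIB3, a pseudokinase target of ATF4, had 99.4 and 43.6 CPM in Control and 18.5 and 17.5 CPM in TGFB1 (-1.88 ± 0.19), and -1.21 without Control r1.

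Other lists moved less or in both directions, apart from the metallothioneins. Over all genes tested 6.21% were higher and 7.09% lower, and counts near these shares are no result about a list. Hypoxia and glycolysis genes were lower in 5 of 19 and higher in 1 (median -0.02), with HK2, a hexokinase, at 40.2 and 46.8 CPM in Control and 16.4 and 19.0 CPM in TGFB1 (log2 fold change -1.30 ± 0.17). Sterol and fatty acid synthesis genes were higher in 5 of 19 and lower in 1 (median 0.26), with DHCR7, a late enzyme of cholesterol synthesis, rising by 0.77. All 3 tested metallothioneins, which bind zinc and copper, rose (median 0.76), 1 of them in every fit. Of 15 cytokine and NF-κB genes 3 rose and 4 fell (median -0.12), of 14 BCL2 family genes 1 rose and 3 fell (median -0.19), and of 23 interferon-stimulated genes 3 rose and 1 fell (median 0.01). Of 12 genes of MHC class I presentation 0 were past the threshold (median -0.14), and of 10 YAP/TEAD targets 1 rose and 1 fell (median -0.00). Calls held in every fit were 3 of the 5 hypoxia falls, 1 of the 5 sterol rises, 1 of the 4 cytokine falls, 1 of the 3 BCL2 family falls and 1 of the 3 interferon-stimulated rises, and none of the other calls of these 5 lists or of the YAP/TEAD targets.

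Markers of other cell types were read in the same sums. THY1, CD3E, TYROBP, CDH5, EPCAM and KRT5 had 0 UMIs in all 4 sums, and PTPRC, the common marker of leukocytes, had 1 UMI in all. Of the 8 fibroblast markers, 5 were tested, and PDGFRB, COL6A3 and FAP rose while DCN fell, the last a call that was not held in every fit. The summed level of the 8 markers was 50.7 and 54.3 CPM in Control and 140 and 138 CPM in TGFB1. FAP, a surface protease of activated fibroblasts, rose from 9.10 and 7.20 CPM to 29.2 and 23.8 CPM (log2 fold change 1.70 ± 0.25). Of the immune list FCER1G rose (1.17 ± 0.20) and of the epithelial list KRT18 rose (0.91), the latter a call lost without TGFB1 r1 (0.62, adjusted p = 0.0544). The summed immune level was 58.9 and 63.2 CPM in Control and 75.1 and 75.2 CPM in TGFB1, the endothelial level between 10.7 and 16.4 CPM, and the epithelial level 111 and 155 CPM in Control against 218 and 200 CPM in TGFB1, where KRT8 and KRT18 made up nearly all UMIs. WM989 is a single cell line, and the part of other cell types in these rises was not tested.

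The change was also visible in the share of cells with a transcript. After every cell was thinned to 5000 UMIs, at least 1 PMEPA1 UMI was found in 29.0% (95% interval 20.1 to 39.4%) and 26.5% (19.9 to 34.0%) of Control primed cells and in 95.8% and 95.3% of TGFB1 primed cells. In the drug-susceptible cells of the same libraries these shares were 1.87% and 2.33% in Control and 36.2% and 32.2% in TGFB1. For NGFR the shares were 18.3% (11.02 to 27.65%) and 25.9% (19.4 to 33.4%) of Control primed cells and 2.16% (1.498 to 3.0%) and 4.33% (3.43 to 5.39%) of TGFB1 primed cells, against at most 1.04% of drug-susceptible cells in any of the 4 libraries. Without thinning, NGFR was found in 38.7% and 38.3% of Control and in 4.25% and 8.71% of TGFB1 primed cells. A FOXS1 UMI was found in 13.9% and 12.0% of TGFB1 primed cells and in 0 Control primed cells, where the intervals of the share of cells with a UMI, which do not bound the share of cells that express the gene, reached 3.89% and 2.25%. Median depths before thinning were 11100 to 14540 UMIs in primed and 14850 to 21930 UMIs in drug-susceptible cells. The intervals are exact Clopper-Pearson intervals and cover counting error only.

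Within cluster 10, the cluster of most untreated primed cells, fewer genes passed the threshold, and the sign of many genes differed from that over all primed cells. Among the calls over all primed cells that were also tested in cluster 10, 315 of 575 higher and 436 of 708 lower genes kept their sign. In both comparisons 17 genes were called higher and 58 lower. Of 9481 genes tested 99 (1.04%) were higher in TGFB1 and 158 (1.67%) were lower. The Control cells are nearly those of the comparison over all primed cells, and the TGFB1 side holds only 29 and 51 cells, so the 2 comparisons are not independent and the depth is lower. PMEPA1 had 66.1 and 73.3 CPM in Control and 172 and 163 CPM in TGFB1 cells of cluster 10 (log2 fold change 1.25 ± 0.21, adjusted p = 5.87e-04). It was the member of the feedback list that rose there, and SKIL had 1.08 ± 0.34 (adjusted p = 0.0937) and SMAD7 0.26 ± 0.34 (adjusted p = 0.832).

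FN1 and COL1A1 were among the genes that set the clusters apart. FN1 stood at 8823 CPM in cluster 4 and 2449 CPM in cluster 10, over the cells of all treatments. COL1A1 stood at 174.7 CPM in cluster 4, 153 times its level in all cells outside it, most of which were drug-susceptible. The gap to cluster 10 alone was smaller, as its Control cells had 33.5 and 41.8 CPM. Clusters were called on these counts, and the values of cluster 10 are a description of the cells left in it, in which the sign of a gene that separates the clusters can follow from the placement. FN1 had 3335 and 3612 CPM in Control and 1736 and 1284 CPM in TGFB1 cells of cluster 10 (log2 fold change -1.20 ± 0.19, adjusted p = 3.26e-04). COL1A1 had 33.5 and 41.8 CPM against 11.7 and 1.64 CPM (-2.85 ± 0.54, adjusted p = 0.00189). With 29 and 51 TGFB1 cells in cluster 10, these treated COL1A1 levels lie near the floor and rest on few UMIs. Over the lists, 1 of 10 tested collagens rose and 3 fell (median -1.25), and 0 of 16 direct targets rose and 3 fell (median -0.11).

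The same limit holds for melanocyte genes, as MLANA stood at 83.35 CPM in cluster 4 and 249.9 CPM in cluster 10 and S100B at 109 and 522 CPM. Melanocyte genes called in cluster 10 had the opposite direction to that over all primed cells, with 9 of 28 higher and 0 lower (median log2 fold change 0.83). S100B had 437 and 422 CPM in Control and 519 and 1022 CPM in TGFB1 cells of cluster 10 (0.82 ± 0.19, adjusted p = 0.0116), and MLANA had 227 and 210 CPM against 333 and 427 CPM (0.83 ± 0.19, adjusted p = 0.0106). Mitotic genes were lower in 8 of 23 and higher in 0 (median -1.08), with TOP2A at 83.6 and 99.8 CPM in Control and 23.3 and 29.6 CPM in TGFB1 (-1.77 ± 0.31). Some falls passed the threshold in both comparisons. NGFR had 87.8 and 116 CPM in Control and 20.4 and 27.9 CPM in TGFB1 cells of cluster 10 (-2.10 ± 0.30, adjusted p = 6.48e-05), SRGN had 140 and 220 CPM against 29.2 and 16.4 CPM (-3.13 ± 0.31) and TIMP3 had 1818 and 1474 CPM against 557 and 455 CPM (-1.71 ± 0.17). VGF did not pass there, with 1564 and 1850 CPM in Control and 922 and 2005 CPM in TGFB1 (-0.32 ± 0.18, adjusted p = 0.470). CST1 rose in cluster 10 as well, from 1.67 and 2.13 CPM to 43.8 and 8.22 CPM (3.31 ± 0.75, adjusted p = 0.0108), with a wide gap between the TGFB1 sums. Its levels in cluster 10 also rest on few UMIs.

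**Figure D4:**
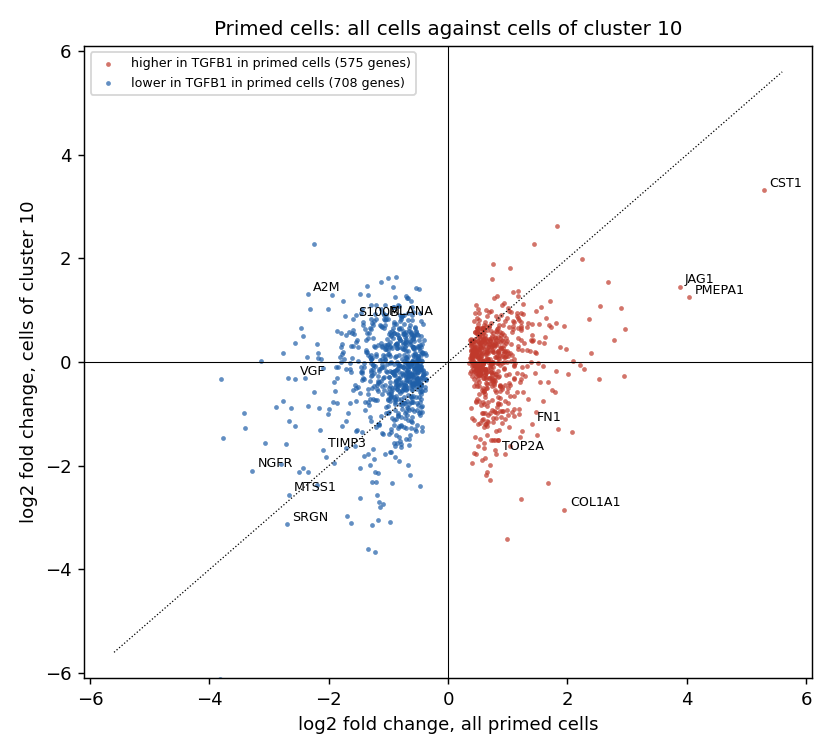
Log2 fold change of TGFB1 over Control within cluster 10 (vertical) against that over all primed cells (horizontal), for genes past the threshold over all primed cells that were also tested in cluster 10 (575 higher in red, 708 lower in blue). The dotted line marks equal values; PMEPA1 and JAG1 lie on the same side of 0 on both axes, FN1 and COL1A1 lie below 0 on the vertical axis alone, and NGFR and SRGN are below 0 on both. Control cells are shared by both axes.

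The effect of TGFB1 was also set beside that in the drug-susceptible cells of the same libraries, where 2665 of 17914 genes (14.9%) were past the threshold. The difference of the effect between the states, tested as an interaction term, was past the threshold for 1847 of 18502 genes (9.98%). The spread in that test came from the trend over all genes alone, and limma-voom called 1070 genes, 818 of them shared with it. Of the 1847 genes, 1750 were also tested in primed cells, and the log2 fold change in primed cells was above that in drug-susceptible cells for 994 of them and below it for 756. TGFB1 also changed the share of cells with the primed label, from 2.26% and 4.47% in Control to 29.1% and 31.3%. The difference therefore compares labelled groups, and does not say that the same kind of cell responded differently in the 2 states. Some genes rose in both states from different starting levels. FN1 had 43.6 and 50.5 CPM in drug-susceptible Control and 714 and 599 CPM in drug-susceptible TGFB1 cells (log2 fold change 3.81), and the effect in primed cells was smaller by 2.32 ± 0.09 on the log2 scale. The same held for COL1A1 (smaller by 1.26) and AXL (smaller by 2.06), which started near the floor in drug-susceptible cells. Without thinning, a UMI was found in 0.30% and 0.65% of drug-susceptible Control cells for COL1A1, and in 0.37% and 1.02% for AXL. The sizes of these 2 differences depend on that low starting level.

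Several genes were lower in treated primed cells and higher in treated drug-susceptible cells. MGP rose from 8.87 and 11.1 CPM to 43.5 and 36.6 CPM in drug-susceptible cells (log2 fold change 2.02), a difference between the states of -3.83, although its fall in primed cells was not past the threshold without Control r2 (-0.69, adjusted p = 0.0808). JUN rose from 2.09 and 3.49 CPM to 12.1 and 10.1 CPM there (1.99), a difference of -2.44, although its fall in primed cells was not held in every fit. S100A6, a calcium-binding protein picked out here after its values were seen, fell from 14230 and 13930 CPM to 5635 and 5763 CPM in primed cells (-1.31 ± 0.15) and rose from 2300 and 2133 CPM to 3421 and 3049 CPM in drug-susceptible cells (0.55), a difference of -1.77 ± 0.10. S100B (difference -1.83), L1CAM (-0.96), SPRY2 (-0.96) and GDF15 (-1.35) had the same pattern. NGFR, SRGN and TIMP3 fell in primed cells and had log2 fold changes of -0.07, 0.43 and -0.03 in drug-susceptible cells, where NGFR was at 0.403 to 2.68 CPM, and the differences were -3.10, -3.04 and -1.995.

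**Figure D5:**
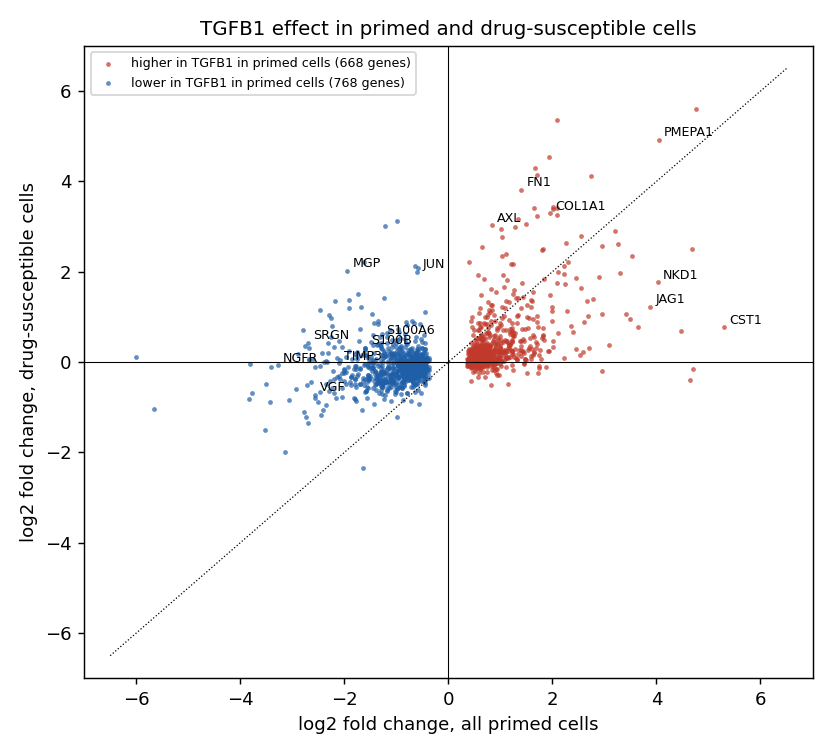
Log2 fold change of TGFB1 over Control in drug-susceptible cells (vertical) against that in primed cells (horizontal), for genes past the threshold in primed cells (668 higher in red, 768 lower in blue); genes with fitted values beyond the axes, such as FOXS1, are not shown. PMEPA1 lies high on both axes, and FN1 and COL1A1 lie above 0 on both but higher on the vertical axis. CST1 and JAG1 lie far to the right, and MGP and JUN to the left of 0 and above it. Both states come from the same 4 libraries.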

How the data were processed

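Single-cell RNA of the barcoded melanoma line WM989 was measured by 10x 3′ chemistry in 8 libraries (4 treatments in 2 replicates). The authors aligned reads to hg38 with Cell Ranger (version and annotation not given in the sources used here), filtered cells in Seurat on genes per cell and mitochondrial share, and deposited raw UMI counts per gene and cell. The authors also deposited per cell the treatment, replicate, cluster, state and phase labels, the percent of mitochondrial and ribosomal UMIs, and a primed-state score as a fraction between 0 and 1, whose median lay between 0.452 and 0.466 in the primed cells compared and between 0.378 and 0.385 in drug-susceptible cells. Doublets were not called here.

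UMI counts were summed over primed cells per library and fitted with edgeR 4.0.16 (quasi-likelihood test, filterByExpr, TMM factors, treatment plus replicate as a block, all 8 sums, 3 residual degrees of freedom), adjusting p by Benjamini-Hochberg over all genes tested. The standard error is the absolute log2 fold change over the square root of F, and CPM is the UMI count scaled to a common library total after TMM. The block was part of the design because each replicate was split over the 4 plates; the difference r2 minus r1 had a correlation of 0.146 between Control and TGFB1 and of 0.0251 to 0.146 over all pairs of treatments, so not every pair exceeded 0.1. The fit of drug-susceptible cells had the same form, and the difference between states was an interaction term with the library as a block. DESeq2 1.42.0, limma-voom (limma 3.58.1, added after seeing the data) and other settings were alternatives. The script was tested on simulated data. Cells were thinned to 5000 UMIs for shares of cells, which left out 16 cells that were shallower.

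Named genes were the 15 largest rises and falls past the threshold averaging at least 10 CPM, with the same direction in both replicates. Genes the study names were added. From gene lists came mostly members with calls held in every fit, plus defining members that did not pass. The rule as first written did not ask for held calls. The list members PDGFB, BAMBI, DCN and KRT18 were called but not held in every fit, and are named with that limit. The members and lists were chosen with earlier results of these data known. Results on a few genes are not reported here. Gene positions are 1-based, from GENCODE on hg38. Other experiments of the series and the chromatin peaks were not used here.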

Additional observations from a re-analysis of the deposited data

Results flagged for a closer look

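Among the genes with the 15 largest rises and the 15 largest falls, the effect of TGFB1 differed between primed and drug-susceptible cells of the same libraries by the interaction test for 25 genes, given here as the log2 fold change in primed cells minus that in drug-susceptible cells. The spread in this test came from the trend over all genes alone. Over all genes the difference was past the threshold for 1847 of 18502 (9.98%). The genes here were picked for extreme log2 fold changes in primed cells, which enter the difference. A high share of calls among them is therefore favoured by the choice and is no result about them. Each state is the cells that carry its label, and TGFB1 changed which cells did.

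Among the rises, the difference was 4.82 for CST1, 4.07 for CST4, 2.79 for JAG1, 2.43 for GFPT2, 2.33 for NKD1, 2.02 for CLU, 1.44 for HTRA1, 1.36 for PLPP4 and 1.15 for DHRS2. For PMEPA1 it was -0.78, since its rise was larger in drug-susceptible cells, where it had 3.57 and 4.32 CPM in Control and 138 and 103 CPM in TGFB1.

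Among the falls, the difference was -3.26 for SEMA3A, -3.10 for NGFR, -3.04 for SRGN, -3.03 for NPPC, -3.03 for SLCO4A1-AS1, -2.91 for MTSS1, -2.69 for PRSS35, -2.68 for NRCAM, -2.58 for LAMA4 and -2.25 for SLC16A6. It was -2.25 for DDIT3, -1.79 for A2M, -1.74 for VGF, -1.70 for HRK and -1.001 for SLC7A11. Control primed cells of DDIT3 and SLC7A11 differed widely between r1 and r2. Some genes had little room to fall in drug-susceptible cells, where few Control cells of r1 and r2 held a UMI without thinning. The shares were 0.94% and 1.62% for SRGN, 1.13% and 1.39% for MTSS1, and 2.39% and 3.06% for PRSS35. Other genes were found more widely there, such as VGF in 77.6% and 88.4%.

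With limma-voom, 20 of the 25 differences were called with the same sign. The exceptions were CST4, PMEPA1, PLPP4, DHRS2 and SLC7A11.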

How the results depend on the processing

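The 679 higher and 775 lower genes became 309 and 384 with DESeq2, 263 and 267 with equal cell numbers, 99 and 158 with cells of cluster 10 alone, and 272 to 367 and 312 to 396 when each sum was left out in turn. Without the replicate block they were 618 and 740, and no call of the 97 called genes recomputed was lost without it. With the 4 sums alone they were 860 and 747. The 2665 genes of drug-susceptible cells became 1189 without the replicate block and 522 with equal cell numbers, and the 1847 differences between states became 1070 with limma-voom. With library totals only all 97 called genes stayed called in the same direction, and with no filter 96 and with the 4 sums alone 96 did (the exception in both was BAMBI). With DESeq2 86 did, and FOXS1, DHRS2, SLC7A11, DDIT3, JUN, AXL, EGFR, MGP, SPOCK1, DCN and BAMBI were not past the threshold. With equal cell numbers 84 of 94 did, and EGFR, MITF, NFATC2, TGFBR3, CDH19, SOX6, PLK1, TOP2A, CCNB1 and BAMBI were not. Cells of cluster 4 alone could not be fitted, with 5 and 6 Control cells. The causes were not tested.

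In G1 cells TOP2A (-0.14) and CCNB1 (-0.0115) had the other sign, which is no check of them since phases are usually called from such genes, and EGFR and PLK1 were not past the threshold. Without the deepest cells JUN was not. Genes not called that changed sign were SMAD2 with library totals only (-0.082) and without the deepest cells (-0.0116), and, when each sum was left out in turn, SMAD2 (-0.0932 to 0.124), SMAD3 (-0.0168 to 0.410), SMAD4 (-0.0824 to 0.415) and TGFBR2 (-0.292 to 0.156). Genes not called that became called were FOSL1 (-0.65) and TGFBR1 (0.65) in G1 cells, TGFBR1 with no filter (0.48), VIM with the 4 sums alone (-0.17) and in cluster 10 (-0.60), and NT5E in cluster 10, there with the other sign (-1.12, adjusted p = 0.0128).

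In cluster 10, log2 fold changes with the other sign than over all primed cells were, among genes that rose or had a positive value, FN1 -1.20, COL1A1 -2.85, NT5E -1.12, AXL -1.51, TGFB1 -0.21, TGFBR1 -0.21, THBS1 -0.72, FURIN -0.025, SMURF2 -0.027, SMAD2 -0.48, SMAD3 -0.26, SMAD4 -0.29, COL6A3 -0.052, COL5A2 -1.30, SPOCK1 -1.35, PDGFRB -0.13, TPM1 -0.23, MYH9 -1.01, MYLK -1.62, JUNB -0.34, AQP1 -2.33, PLK1 -0.91, TOP2A -1.77, CCNB1 -0.95 and KRT18 -0.012. Among genes that fell or had a negative value they were SLC7A11 0.025, HRK 0.37, LAMA4 0.51, DDIT3 0.093, A2M 1.31, FOSL1 0.17, SOX10 0.83, MITF 0.57, MLANA 0.83, S100B 0.82, MGP 1.29, NFATC2 0.38, GDF15 0.58, BAMBI 0.97, CDH19 0.66, SOX6 0.31 and HK2 0.064. Of 81 called genes with a value in cluster 10, 14 stayed called in the same direction. Depth limits this comparison, since the TGFB1 side of cluster 10 holds 29 and 51 cells.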
